A study of Mus musculus with 18 samples.

Results

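Natural killer (NK) cells of stage III, which carry both CD27 and CD11b on their surface, were compared between mice with Eomes deleted in NK cells and wild-type (WT) mice. The comparison used the 3 KO and 3 WT libraries labelled stage III, 6 of the 18 libraries of the series, across all 14156 genes with enough counts to test. KO cells came from mice with an Ncr1-iCreERT2 allele (Ncr1-iCreERT2 KI/WT), a Cre-dependent YFP reporter (Rosa26YFPLSL) and floxed Eomes alleles (Eomesfl/fl), after tamoxifen. WT cells came from mice whose further genotype is not labelled, so whether they carried Cre is not known. All mice were C57BL/6 and 8 to 12 weeks old, and tamoxifen was given for 3 days in 3 separate experiments. The same protocol text covers both genotypes and does not say whether WT mice had tamoxifen, so an effect of tamoxifen and that of the deletion cannot be told apart. Spleens were pooled before the sort, and neither the number of mice per pool nor the experiment behind each replicate number is labelled. The p-values therefore measure the spread between these pooled preparations. The inducible Cre acts in cells that express Ncr1, which are NK cells and some other innate lymphoid cells, so the deletion need not have reached every sorted cell.

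Eomes and the related factor T-bet are T-box transcription factors, which bind short DNA elements and set the identity and function of NK cells. Circulating NK cells express both factors, whereas type 1 innate lymphoid cells (ILC1), their tissue-resident relatives, depend on T-bet and largely lack Eomes. As splenic NK cells mature, they first display CD27, then CD27 together with CD11b, and finally CD11b alone, while they gain cytotoxic granule proteins and lose receptors of early cells. Stage III lies in the middle of this path.

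Eomes RNA was lower in every KO library, by a modest amount. In CPM (the count of a gene relative to the library's total, scaled with edgeR's TMM factors and used throughout), Eomes (ENSMUSG00000032446) was at 181, 153 and 173 in KO replicates 1, 2 and 3, against 278, 255 and 282 in WT replicates 1, 2 and 3. The groups did not overlap. KO was lower by a log2 fold change of -0.69 ± 0.15 (SE here and below, 3 libraries per genotype), with an adjusted p of 0.0143 in edgeR's quasi-likelihood test. The SE comes from a fit of all 18 libraries with 1 shared estimate of the spread, and does not measure the spread of the KO libraries alone. The call ended in 4 of the 18 fits that left out a single library, namely KO replicate 1 or any 1 WT stage III replicate, with values between -0.73 and -0.62. Counts cover the whole gene, so RNA that still holds the undeleted exons is counted with the rest. Defining NK transcripts were abundant in all 6 libraries: Klrk1, which encodes NKG2D, was at 2876, 2834 and 3087 CPM in KO and 2927, 3004 and 2992 CPM in WT. Other NK markers varied more between KO libraries: Nkg7, a granule membrane protein, was at 15677, 7570.4 and 19485 CPM in KO and 9222, 8863 and 8328 CPM in WT (adjusted p = 0.0601). Itga2, the integrin CD49b, was below WT in every KO library, at 63.6, 82.1 and 33.0 CPM in KO and 106, 103 and 111 CPM in WT, and did not pass (-0.84 ± 0.27, adjusted p = 0.0634). Of the transcripts behind the sort, Cd27 was at 426, 317 and 396 CPM in KO and 386, 393 and 365 CPM in WT. Itgam, which encodes CD11b, was at 105, 293 and 107 CPM in KO and 454, 440 and 396 CPM in WT. The groups overlapped for Cd27 and did not for Itgam, for which KO replicates 1 and 3 were the low ones.

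The KO libraries differed from each other far more than the WT libraries did. The median standard deviation of a gene on log2(CPM + 1) was 0.391 in KO stage III and 0.127 in WT stage III. It was 0.136 to 0.187 in the groups of stages II and IV. The estimate of the spread shared by all groups can therefore be too small for KO stage III. Total counts were 19898606, 22469392 and 24909877 in KO and 21681639, 28365837 and 27011187 in WT, so depth was similar. Genes with at least 1 count numbered 14824, 21454 and 16536 in KO and 21556, 18749 and 18765 in WT, and the top 10 genes of each library held 17.0%, 10.6% and 20.6% of its counts in KO and 12.6%, 11.3% and 11.1% in WT. On log2(CPM + 1), 2460 genes of KO replicate 1 (17.4%), 420 of KO replicate 2 (2.97%) and 1854 of KO replicate 3 (13.1%) lay at least 2-fold from the WT mean, against 158, 42 and 63 in the WT libraries themselves. The missing genes were low ones: of 8744 genes at 5 CPM or more in every WT library, 7, 0 and 1 had no count in KO replicates 1, 2 and 3. KO replicates 1 and 3 therefore stood apart from replicate 2, and results are given with all 3 KO libraries and with KO replicate 2 alone. Xist was at 18.8, 9.67 and 7.23 CPM in KO and 34.3, 0.144 and 0.489 CPM in WT, so WT replicates 2 and 3 came from pools with few or no female cells. Ncr1, which carries the Cre, was at 2216, 1631 and 1791 CPM in KO and 2043, 3878 and 3658 CPM in WT, where WT replicate 1 lay at the KO level. What these differences between pools contribute to the results was not tested.

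**Figure D1:**
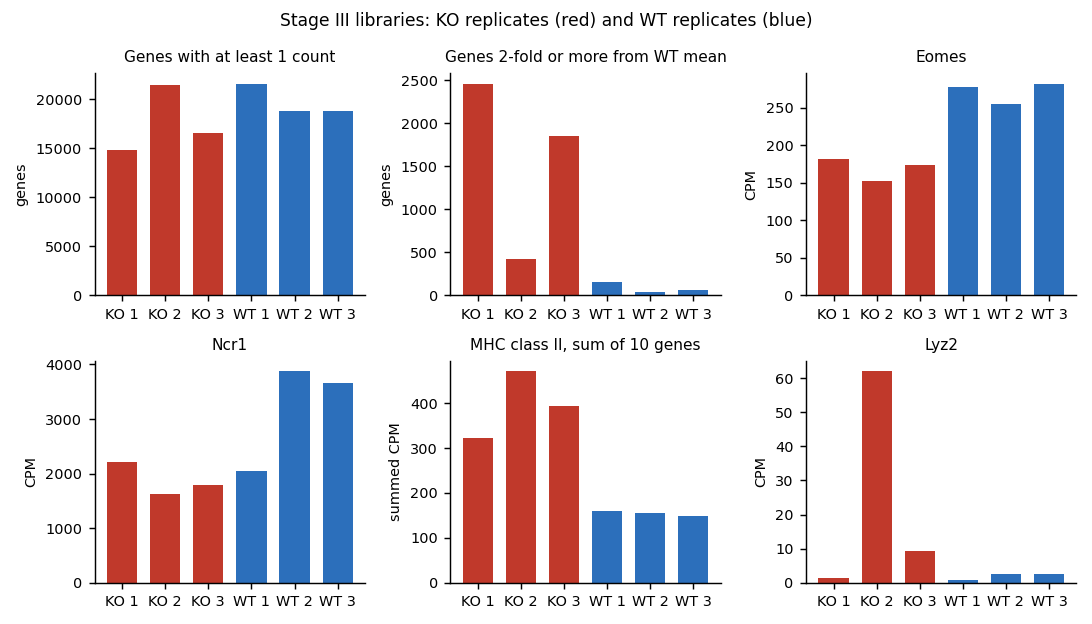
Measures in each stage III library, with KO replicates in red and WT replicates in blue: genes with at least 1 count, genes at least 2-fold from the WT mean on log2(CPM + 1), and the CPM of Eomes, Ncr1, 10 MHC class II genes summed, and Lyz2. KO replicates 1 and 3 have the fewest genes, KO replicate 2 has the highest Lyz2 at 62.0 CPM, and all KO libraries lie below all WT libraries for Eomes.

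Eomes deletion was accompanied by changes in 1119 of 14156 genes (7.9%) in edgeR's quasi-likelihood test at an adjusted p under 0.05. Of these, 730 were higher (5.16% of tested genes) and 389 lower (2.75%) in KO, and 440 changed by at least 2-fold. The 3 KO libraries lay wholly above or below the 3 WT libraries for 941 of the called genes, where 20.5% of all tested genes did so (9.29% with KO above and 11.2% with KO below). The number of calls varied with the libraries fitted. It was 162 (0.871% of the genes tested in that fit) with KO replicate 2 as the only KO stage III library, 4993 (30.6%) without KO replicate 2, 371 and 352 without KO replicate 1 or 3, and 235, 168 and 144 without WT replicate 1, 2 or 3. Fits that left out 1 of the 12 libraries of the other stages, which help to estimate the spread, gave 486 to 843 calls. Each fit applied the filter on counts anew. Without WT stage II replicate 1 or KO stage IV replicate 3, 14417 and 14446 genes were tested and 843 and 749 called. The other fits without a single library tested 16290 to 16377 genes. The part of the filter in the lower numbers of calls was not tested. With the 6 stage III libraries alone, 10 genes passed (0.0798%), 9 higher (0.0718%) and 1 lower (0.00798%), and 1542 had an unadjusted p under 0.05.

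A smaller group of genes kept its calls whichever single stage III library was left out. For 78 genes (0.551%), 47 higher (0.332%) and 31 lower (0.219%), the call held in the same direction in the fit of all libraries, in each of 6 fits that left out 1 stage III library, and in the fit with KO replicate 2 alone. These are called stable below; the word describes those fits and adds no test. All 78 passed DESeq2's Wald test and 69 passed limma's voom with sample quality weights, while 25 passed with WT replicate 1 as the only WT stage III library, a fit with 12 genes called higher (0.0646%) and 15 lower (0.0807%) in all. With the 6 stage III libraries alone 9 of the 78 passed, and 18 did with a replicate block added to that fit. Of all 1119 called genes, 1034 kept their sign with KO replicate 2 alone, but 114 were still called there.

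**Figure D2:**
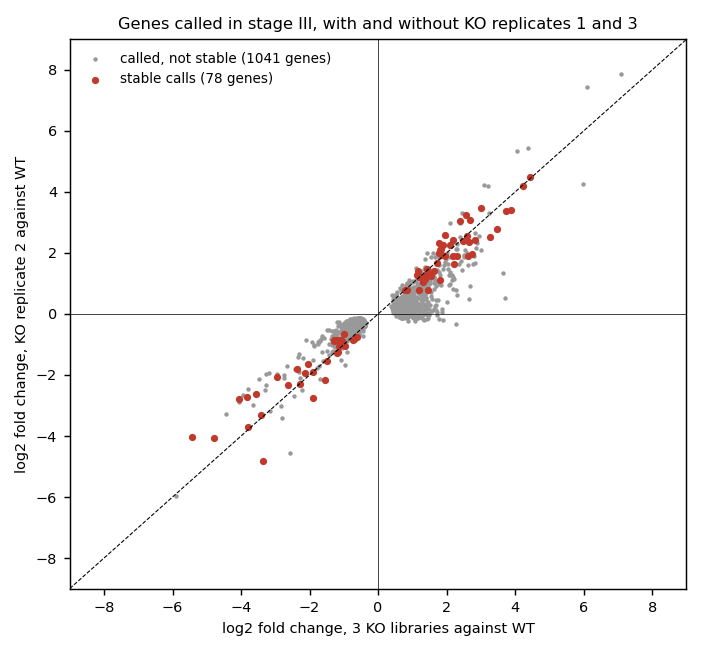
Log2 fold changes of the 1119 called genes with all 3 KO libraries (x axis) and with KO replicate 2 as the only KO library (y axis), both against WT. The 78 stable genes (red) lie near the line of equality. Many of the other 1041 (grey), above all among the higher genes, lie close to 0 on the y axis. Stable genes had to be called in the fit on the y axis, so this contrast follows in part from the rule that chose them.

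Among the genes that rose, the highest stable call was Zfp683 (chromosome 4, 134053838 to 134058996, GRCm38), the gene for Hobit, which helps to keep lymphocytes resident in tissues. It was at 6.77, 7.26 and 7.03 CPM in KO and 0.535, 0.108 and 0.339 CPM in WT. All 3 KO libraries were alike, including the ones with few genes, and the log2 fold change was 4.44 ± 0.37 (adjusted p = 4.09e-06). The next listed gene on the chromosome, Crybg2, was at 28.1, 19.0 and 10.6 CPM in KO and 1.34, 0.899 and 0.865 CPM in WT (4.22 ± 0.35). Crybg2 shares exon positions with Cd52 on the opposite strand, an abundant surface protein gene at 3166, 1482 and 3451 CPM in KO and 1623, 1462 and 1339 CPM in WT. Without a stated strand setting, reads of the 2 genes cannot be told apart where they overlap. The same limit holds for Irak3, Cdc42ep1, Cish, Ikzf2, Mcam, Myb, Jak1, Slc2a1, Pfkp and Rpl35, which also share exon positions with a gene on the opposite strand, and for Il10rb, Cd74 and mt-Nd1, which share them on the same strand. Aqp9, a channel for water and glycerol, was at 25.4, 12.9 and 11.5 CPM in KO and 0.625, 1.73 and 1.32 CPM in WT (3.74 ± 0.36). Irak3, an inhibitory kinase of Toll-like receptor signalling, was at 3.81, 1.57 and 1.18 CPM in KO and 0.134, 0.144 and 0.150 CPM in WT (3.88 ± 0.60). Both were highest in KO replicate 1, and their groups did not overlap.

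A pair of calcium-binding S100 proteins and a galectin rose with small errors. S100a4 was at 79.9, 47.2 and 58.2 CPM in KO and 8.08, 8.63 and 9.22 CPM in WT, a log2 fold change of 2.84 ± 0.18 (adjusted p = 4.44e-07). Lgals3, which encodes galectin-3, was at 336, 161 and 304 CPM in KO and 43.0, 41.7 and 44.5 CPM in WT (2.63 ± 0.26). S100a6, which lies near S100a4 on chromosome 3, was at 1020.2, 488 and 797 CPM in KO and 301, 271 and 271 CPM in WT (1.45 ± 0.20). KO replicate 2 was the lowest KO library for each of these genes and still lay above every WT library. Of 17 tested genes of the S100, annexin and galectin families, 4 rose and none fell (23.5%, against 5.16% of all tested genes higher; median 0.40, against 0.02), and 3 of the 4 were stable. Anxa4 was the other, and Anxa8, which is on no list, rose at 34.2, 22.2 and 33.0 CPM in KO and 6.74, 4.82 and 3.88 CPM in WT (2.54 ± 0.43) without being stable.

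The remaining 15 highest stable rises covered receptors, signalling proteins and inhibitors. Gpr15, a homing receptor of lymphocytes for the gut, was at 36.2, 12.99 and 13.7 CPM in KO and 1.56, 1.91 and 2.14 CPM in WT (3.48 ± 0.38). Gpr34, a receptor for lysophosphatidylserine, was at 8.94, 6.95 and 5.49 CPM in KO and 1.52, 1.22 and 0.790 CPM in WT (2.60 ± 0.36). Ifitm3, an antiviral membrane protein, was at 5.98, 15.3 and 11.7 CPM in KO and 0.937, 1.91 and 1.24 CPM in WT (3.00 ± 0.52). KO replicate 1 was the highest library for both receptors and the lowest KO library for Ifitm3. Cdc42ep1, an effector of the GTPase Cdc42, changed by 3.27 ± 0.42, Pik3r6, a regulatory subunit of PI3-kinase gamma, by 2.69 ± 0.44, Apol7b by 2.66 ± 0.44, Serpinb1a, an inhibitor of granule proteases, by 2.57 ± 0.41, and Lst1 by 2.49 ± 0.43. Apol7b and Serpinb1a have close relatives in the genome, and reads shared between copies make their values uncertain.

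The deepest stable falls were of genes almost silent in KO. Dpysl5, a protein of neuronal growth cones, had 0, 0.481 and 0 CPM in KO and 5.18, 9.63 and 8.77 CPM in WT (-5.44 ± 0.79). Fcrl6, an Fc receptor-like protein of cytotoxic lymphocytes that binds MHC class II in humans, was at 0, 0.569 and 0.410 CPM in KO and 8.35, 9.53 and 10.99 CPM in WT (-4.80 ± 0.53). Cyp17a1, a steroid hydroxylase, was at 0, 1.14 and 0.154 CPM in KO and 7.23, 7.59 and 8.54 CPM in WT (-4.06 ± 0.57). Each of these was highest, among KO libraries, in replicate 2, the library with the most detected genes, and none overlapped WT. Cd300lf, an inhibitory receptor, was at 0.342, 6.12 and 2.92 CPM in KO and 29.7, 42.9 and 40.2 CPM in WT (-3.55 ± 0.53). Rhpn1 was at 0.228, 1.75 and 2.77 CPM in KO and 14.2, 19.4 and 18.2 CPM in WT (-3.42 ± 0.51). Clec4e, the receptor Mincle, fell by 2.94 ± 0.54 on the log2 scale.

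Other falls were less deep. St5 was at 3.07, 4.02 and 2.62 CPM in KO and 15.8, 19.6 and 25.2 CPM in WT (-2.63 ± 0.26), and it was the 1 gene lower in KO among the 10 that passed with the stage III libraries alone. Efnb1, the ligand ephrin-B1, was at 1.71, 3.37 and 1.59 CPM in KO and 10.9, 12.6 and 11.4 CPM in WT (-2.38 ± 0.28). Mcam, the adhesion molecule CD146, was at 9.51, 6.08 and 2.72 CPM in KO and 26.7, 29.4 and 32.7 CPM in WT (-2.28 ± 0.29). No KO library overlapped a WT library for these genes. Camk2n1, an inhibitor of CaM kinase II, changed by -2.05 ± 0.23 and Gm14125 by -2.14 ± 0.31. Entpd1, the ectonucleotidase CD39, was at 5.24, 8.35 and 11.3 CPM in KO and 37.8, 30.7 and 25.4 CPM in WT (-1.91 ± 0.32).

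**Figure D3:**
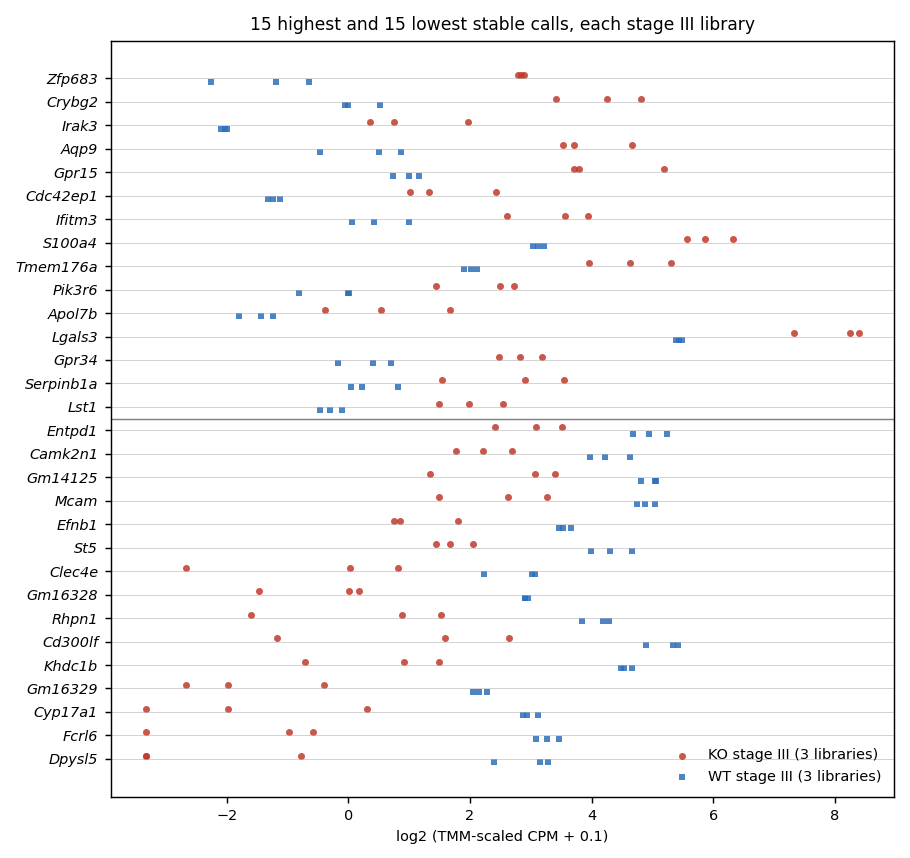
CPM on a log2 scale (0.1 CPM added) of the 15 highest and 15 lowest stable genes in each stage III library, with KO as red circles and WT as blue squares. No KO library overlaps a WT library for any of the 30 genes, and the KO libraries spread more widely than the WT libraries for most.

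Several stable genes were neighbours. On chromosome 1 of GRCm38, Khdc1a (-1.89 ± 0.30), Gm16329 (-3.83 ± 0.56), Khdc1b (-3.79 ± 0.39) and Gm16328 (-3.36 ± 0.50) fell together on the plus strand within a stretch from 21349641 to 21391101. Khdc1b was at 0.512, 1.79 and 2.72 CPM in KO and 22.3, 25.3 and 22.95 CPM in WT. Khdc1a and Khdc1b are related in sequence, and reads may be split between such copies. Zfp683 and Crybg2 lie 6915 bases apart on the plus strand of chromosome 4, with no listed gene between them. Tmem176a and Tmem176b, which encode related membrane proteins, are transcribed away from each other on chromosome 6 and rose together: Tmem176b was at 57.6, 34.2 and 44.4 CPM in KO and 8.97, 8.59 and 9.78 CPM in WT (2.31 ± 0.19), and Tmem176a at 39.4, 15.4 and 24.8 CPM in KO and 3.93, 4.24 and 3.65 CPM in WT (2.75 ± 0.29). Other stable genes that lay close to each other, with 1 to 3 listed genes between them, were S100a4 with S100a6, Lst1 with Lta, and Cyp17a1 with As3mt.

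Stretches of upstream DNA from RefSeq on GRCm38.p6 are shown for genes that moved together, for the perforin gene Prf1 and for the leucine zipper gene Tsc22d1. The first is the 108 bases that separate Tmem176b and Tmem176a (chr6:48841375-48841482, plus strand). The others are the 250 bases before a start of Khdc1b (chr1:21383306-21383555, plus strand), of Prf1 (chr10:61297586-61297835, plus strand) and of Tsc22d1 (chr14:76488186-76488435, plus strand). Capitals mark the core of the T-box half-site, GGTGTGA or its reverse complement TCACACC. Of the stretches shown, only that of Tsc22d1 holds the core.
Tmem176b to Tmem176a: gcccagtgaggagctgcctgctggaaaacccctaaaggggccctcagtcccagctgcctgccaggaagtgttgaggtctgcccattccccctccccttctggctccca
Khdc1b: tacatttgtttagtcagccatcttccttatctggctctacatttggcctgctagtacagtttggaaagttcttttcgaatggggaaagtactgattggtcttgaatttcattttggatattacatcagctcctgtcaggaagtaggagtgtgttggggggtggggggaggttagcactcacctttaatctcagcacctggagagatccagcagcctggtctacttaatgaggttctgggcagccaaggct
Prf1: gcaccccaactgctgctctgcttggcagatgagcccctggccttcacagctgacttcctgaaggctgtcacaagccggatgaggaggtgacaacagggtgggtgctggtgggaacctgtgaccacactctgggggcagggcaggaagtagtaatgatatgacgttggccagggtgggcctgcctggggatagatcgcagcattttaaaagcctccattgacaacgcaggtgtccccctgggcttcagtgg
Tsc22d1: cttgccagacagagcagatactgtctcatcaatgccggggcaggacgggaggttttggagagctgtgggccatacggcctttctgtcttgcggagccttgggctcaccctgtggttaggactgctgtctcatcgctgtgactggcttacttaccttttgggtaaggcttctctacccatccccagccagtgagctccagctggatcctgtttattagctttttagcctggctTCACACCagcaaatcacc
The core, searched on both strands in the 250 bases before each RefSeq start, was found for 1 of 57 stable genes with an entry (1.75%), against 362 of 10194 tested genes (3.55%) and 1039 of 27025 genes of the table (3.84%). The match was that of Tsc22d1, 18 bases before the start, which is 1 of several starts of the gene. Tsc22d1 was at 130.4, 101 and 143 CPM in KO and 43.4, 40.5 and 44.0 CPM in WT (1.55 ± 0.20). A match in such a window is a description of letters and no evidence of binding.

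Among transcription factors, more early and residency factors rose than fell, maturation factors that passed the test were lower in KO, and the T-bet gene did not pass. Of 18 early and residency factors 33.3% were called, against 7.9% of all tested genes. Of these factors 4 rose and 2 fell, Myb and Eomes itself (median 0.21), and 3 of the rises were stable. Besides Zfp683, Ikzf2, which encodes Helios, was at 40.2, 44.2 and 35.1 CPM in KO and 18.9, 18.8 and 17.1 CPM in WT (1.12 ± 0.13, adjusted p = 1.15e-04). Id3, an inhibitor of E proteins, was at 12.1, 6.82 and 6.00 CPM in KO and 2.01, 1.80 and 1.66 CPM in WT (2.19 ± 0.28). The groups were apart for both, evenly for Ikzf2 and with KO replicate 1 high for Id3. Myb, a factor of progenitors, fell to 1.02, 7.35 and 5.69 CPM in KO, against 21.4, 24.3 and 30.1 CPM in WT (-2.42 ± 0.47), and missed the threshold with KO replicate 2 alone (-1.79, adjusted p = 0.0614). Of 21 T-box and maturation factors none rose and 4 fell (19.0%, against 2.75% of all tested genes lower, median -0.11): Ikzf3, Prdm1, Irf8 and Ikzf1. Ikzf3, which encodes Aiolos, was at 151, 202 and 184 CPM in KO and 404, 367 and 345 CPM in WT (-1.06 ± 0.13) and was the stable one. Prdm1, the repressor Blimp-1, was at 48.1, 46.1 and 36.1 CPM in KO and 71.8, 87.6 and 109 CPM in WT (-1.04 ± 0.19). Tbx21, the T-bet gene, was at 183, 159 and 145 CPM in KO and 152, 140 and 128 CPM in WT, with overlapping groups and a log2 fold change of 0.21 ± 0.20 that did not pass (adjusted p = 0.510).

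Surface genes that mark ILC1 and tissue-resident cells had the largest share of rises among the 33 lists with all 3 KO libraries. With KO replicate 2 alone the median of MHC class II genes was higher than theirs, at 2.03 against 1.53. The lists were chosen with earlier results of these data known, so this rank is a description. Of 20 members of the ILC1 list 12 rose and none fell (60.0%, against 5.16% of all tested genes higher, median 1.495). Of the rises 6 were stable, against 0.332% of all tested genes. With KO replicate 2 alone the median of the list was 1.53, against 0.01 over all genes. The rises were led by Tmem176b, Tmem176a, Gpr15 and Gpr34. The summed level of the list overlapped between the groups, at 3514, 5811 and 3516 CPM in KO and 1738, 3824 and 4671 CPM in WT. Il7r, the receptor chain for IL-7, was at 112, 86.4 and 48.8 CPM in KO and 20.3, 19.0 and 28.7 CPM in WT (1.86 ± 0.29). Itga1, the collagen-binding integrin CD49a, was at 9.91, 9.75 and 3.85 CPM in KO and 2.68, 1.87 and 2.07 CPM in WT (1.83 ± 0.32). Both were lowest in KO replicate 3, which still lay above WT. Cxcr6, a chemokine receptor of resident lymphocytes, was at 45.3, 19.7 and 31.7 CPM in KO and 7.94, 4.03 and 3.42 CPM in WT (2.66 ± 0.49), and Tnfsf10, the death ligand TRAIL, at 17.8, 17.7 and 22.1 CPM in KO and 11.3, 7.69 and 7.07 CPM in WT (1.15 ± 0.20). These last calls ended with KO replicate 2 alone (adjusted p = 0.229 and 0.0832). In RNA of a sorted population, a larger share of cells of one type and more RNA per cell cannot be told apart, which holds for every gene here.

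Cytotoxic granule genes moved in both directions. Of 20 tested genes for granzymes, perforin and granule machinery 2 rose and 4 fell (median -0.13). Prf1, the perforin gene, whose product forms pores in target cells, was at 611, 903 and 447 CPM in KO and 1545, 1692 and 1572 CPM in WT (-1.29 ± 0.19, adjusted p = 0.00122). Stx11, a syntaxin of granule release, was at 22.4, 18.7 and 18.6 CPM in KO and 34.0, 32.7 and 33.2 CPM in WT (-0.74 ± 0.13). Both falls were stable, and KO replicate 2 was the nearest to WT for Prf1. Gzmc, which encodes granzyme C, was at 29.7, 14.3 and 12.2 CPM in KO and 5.62, 4.75 and 6.02 CPM in WT (1.78 ± 0.36), and Srgn, the granule proteoglycan serglycin, at 1329, 1256 and 1043 CPM in KO and 568, 698 and 697 CPM in WT (0.89 ± 0.18). Neither rise was a stable call, and with KO replicate 2 alone the median of the list was -0.17, against 0.01 over all genes. Gzma, the granzyme A gene, was looked at after its values were seen because the KO libraries disagreed on it: it was at 8297, 4812 and 12577 CPM in KO and 10894, 8808 and 8321 CPM in WT. The log2 fold change was -0.13 ± 0.24 with all libraries (adjusted p = 0.761) and -0.97 with KO replicate 2 alone (adjusted p = 0.0228).

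Of 14 surface genes of NK maturation 57.1% were called, against 7.9% of all tested genes. The calls split evenly, with 4 higher and 4 lower (median 0.29). Spn, the sialoglycoprotein CD43, was at 343, 279 and 288 CPM in KO and 495, 470 and 439 CPM in WT (-0.63 ± 0.12) and was the stable member. Ly6c2 was at 317, 206 and 188 CPM in KO and 42.9, 78.3 and 107 CPM in WT (1.64 ± 0.31), and Ly6e at 3397, 1847 and 4187 CPM in KO and 1522, 1496 and 1328 CPM in WT (1.12 ± 0.21). For Ly6e KO replicate 2 lay near WT, and its log2 fold change alone was 0.34. Itgam fell by 1.35 ± 0.32 on the log2 scale (adjusted p = 0.0225), but by 0.56 with KO replicate 2 alone (adjusted p = 0.711). NK receptors for MHC class I and their relatives were called about as often as all tested genes (7.9%): 1 of 12 Ly49 receptors rose (8.33%) (Klra5, 1.09 ± 0.24, a member of a gene family with near-identical copies) and 1 of 14 CD94, NKG2 and NKR-P1 receptors fell (7.14%; Klrc3, -0.47 ± 0.14). Ly49 sums were 7316, 6130 and 10254 CPM in KO and 6766, 7377 and 7850 CPM in WT, so the KO libraries spread more widely. Of 21 genes of natural cytotoxicity receptors, Fc receptors and their ITAM signalling, 3 fell (14.3%, against 2.75% of all genes lower) and none rose. They were the kinases Syk (-0.63 ± 0.11) and Zap70 (-0.48 ± 0.10) and the adaptor Sh2d2a (-0.69 ± 0.17). Zap70 was at 175, 188 and 175 CPM in KO and 245, 255 and 252 CPM in WT, even within each group, yet none of the 21 passed with KO replicate 2 alone.

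Receptors that guide migration and adhesion were changed on both sides. Among 15 chemokine and sphingosine phosphate receptors 2 rose (Gpr15 and Cxcr6) and 4 fell (median -0.11). Ccr2, the receptor for the chemokine CCL2, was at 681, 589 and 575 CPM in KO and 1472, 1405 and 1365 CPM in WT (-1.20 ± 0.11, adjusted p = 2.09e-05). The 3 KO libraries agreed closely here, and with KO replicate 2 alone the value was -1.27. Of 21 integrins and adhesion genes 3 rose and 5 fell (38.1% called, against 7.9% of all genes, median -0.14). Itgb7, a subunit of gut-homing integrins, was at 469, 400 and 367 CPM in KO and 223, 248 and 220 CPM in WT (0.84 ± 0.14). Itgb1 also rose (0.68 ± 0.14), and Mcam and Itgam were among the falls. In the SLAM, nectin-binding and checkpoint list 3 of 17 rose (Cd48, Ctla4 and Lag3) and 2 fell (Cd300lf and Cd84), 29.4% in all.

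Cytokine genes that passed the test were all higher in KO. Of 14 secreted cytokines and chemokines 4 rose and none fell (28.6%, against 5.16% of all tested genes higher; median 0.66), and 3 rose with KO replicate 2 alone, where 0.559% of all genes did. Lta, lymphotoxin alpha, was at 2.73, 10.8 and 6.82 CPM in KO and 1.43, 1.65 and 0.790 CPM in WT (2.40 ± 0.42), and Tnf at 12.0, 24.8 and 25.0 CPM in KO and 3.39, 8.45 and 6.85 CPM in WT (1.72 ± 0.37). Ccl9 was at 1.82, 19.1 and 4.77 CPM in KO and 1.07, 1.22 and 0.752 CPM in WT (3.08 ± 0.84), and Ccl5 at 34888, 19652 and 53941 CPM in KO and 21473, 17203 and 17586 CPM in WT (0.95 ± 0.24). KO replicate 2 was the high library for Lta and Ccl9, while for Ccl5 it lay below WT replicate 1. Of 16 tumour necrosis factor ligands and receptors 4 rose and 1 fell (31.2% called, against 7.9% of all tested genes). Tnfsf8, the ligand of CD30, was the stable one at 59.3, 57.5 and 36.4 CPM in KO and 19.5, 8.16 and 8.43 CPM in WT (2.09 ± 0.33). Of 23 genes of common gamma chain cytokines, JAK, STAT and SOCS 4 rose and 1 fell (21.7% called). Their median was -0.23, on the side opposite to the larger count. Cish, an inhibitor of STAT5 signalling, was at 18.7, 22.5 and 24.9 CPM in KO and 9.24, 11.8 and 8.09 CPM in WT (1.18 ± 0.18), and Jak1 fell by 0.45 ± 0.12 on the log2 scale. Receptors for IL-12, IL-18, interferons and IL-10 gave 2 falls in 14 (14.3%, against 2.75% of all genes lower), Il10ra (-1.02 ± 0.19) and Il10rb (-0.44 ± 0.10).

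Genes of oxidative phosphorylation, ribosomes and the proteasome had summed levels above every WT library in KO replicates 1 and 3, while few members passed the test. For oxidative phosphorylation the sum was 9319, 5964 and 8624 CPM in KO and 6265, 6221 and 6089 CPM in WT. Of 25 nuclear genes of oxidative phosphorylation 5 rose and none fell (median 0.55). Cox5b was at 107, 52.5 and 95.4 CPM in KO and 49.0, 46.0 and 49.7 CPM in WT (0.81 ± 0.19). With KO replicate 2 alone none of the 25 passed and the median was -0.08, while without it 17 rose and 1 fell, in a fit that called 15.1% of all genes higher and 15.5% lower and whose median over all genes was -0.12. Of 54 cytosolic ribosomal proteins 5 rose (9.26%, against 5.16% of all genes; median 0.35), none with KO replicate 2 alone (median 0.02) and 28 without that library, against the same 15.1%. Rpl35 was at 219, 86.6 and 201 CPM in KO and 76.4, 75.2 and 79.7 CPM in WT (1.13 ± 0.24). Of 27 proteasome genes 1 rose, Psmb6, at 477, 272 and 535 CPM in KO and 288, 275 and 280 CPM in WT, and 18 rose without KO replicate 2, again against 15.1% of all genes. Actb, which encodes beta-actin, was at 64040.2, 30196 and 126151 CPM in KO and 34023, 36391 and 34564 CPM in WT (1.07 ± 0.31), and with KO replicate 2 alone its sign turned to -0.22. In the actin list 3 of 28 rose and 2 fell (17.9% called, against 7.9% of all tested genes). Gsn, the actin-severing gelsolin, was the stable member, at 14.9, 35.2 and 16.1 CPM in KO and 7.01, 5.39 and 4.85 CPM in WT (1.94 ± 0.31). KO replicates 1 and 3 also had few detected genes and a high share of counts in their top genes, and the part these play was not tested.

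Interferon-stimulated genes had 7 of 20 members called (35.0%, against 7.9% of all tested genes). The lists given with them here had 0 to 3 calls each (0.0% to 15.8%). In glucose uptake and glycolysis the summed level was below every WT library in every KO library, least so in KO replicate 2, at 2717, 3048 and 2567 CPM in KO and 3097, 3392 and 3171 CPM in WT. Of its 19 genes 3 were called, the hexokinase gene Hk2 higher (1.88 ± 0.38), and the glucose transporter gene Slc2a1 (-0.70 ± 0.15) and Pfkp (-0.99 ± 0.23) lower, and none passed with KO replicate 2 alone. Of the interferon-stimulated genes 5 rose, among them Ifit1 (1.05 ± 0.21), Isg20 (1.24 ± 0.25), Rtp4 and Ifit3, and 2 fell. Isg20, a nuclease, was at 6.83, 11.2 and 13.6 CPM in KO and 4.37, 4.31 and 4.74 CPM in WT and was the member that passed with KO replicate 2 alone. Cell cycle genes gave 1 rise (Ccne1) and 1 fall (Ccnd2) in 26, immediate early genes 1 rise in 20 (Ier5, in a list whose sums followed the replicate number in replicates 1 and 2, at 5992, 15353 and 7086 CPM in KO and 5417, 12115 and 15069.99 CPM in WT), mitochondrially encoded transcripts 1 in 8 (mt-Nd1), MHC class I and peptide loading 1 in 17 (B2m), and the BCL-2 family 1 in 16 (Bcl2a1d, which has near-identical copies). In the transforming growth factor beta pathway edgeR called none of 16 genes (1 at an unadjusted p under 0.05, 1 by DESeq2 and 0 by voom; median 0.17).

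**Figure D4:**
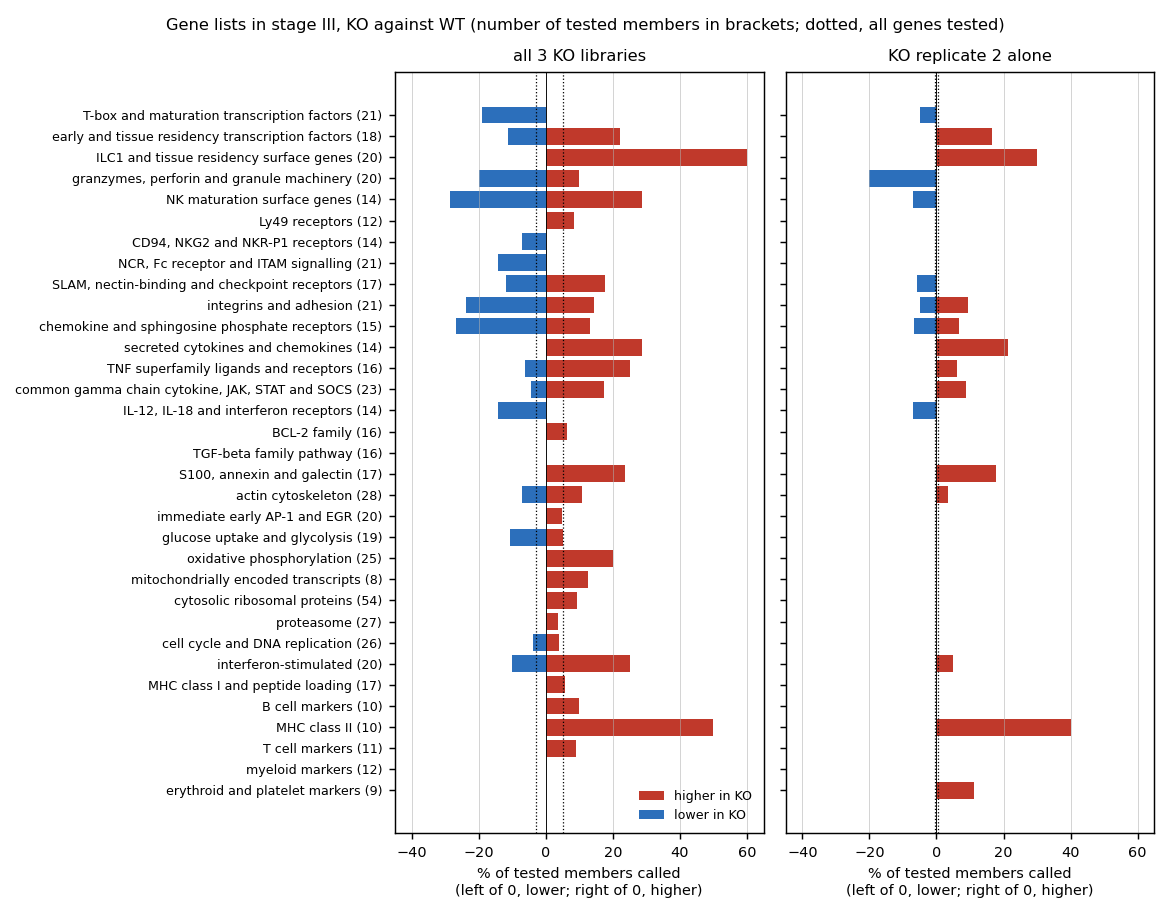
Percentage of the tested members of each of 33 gene lists called higher (red, right) or lower (blue, left) in KO, with all 3 KO libraries (left panel) and with KO replicate 2 as the only KO library (right panel). Dotted lines give the same for all genes tested, 5.16% higher and 2.75% lower on the left and 0.559% and 0.312% on the right, and ILC1 surface genes reach 60.0% higher on the left.

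Transcripts of other cell types differed between KO libraries and, for some lists, between genotypes. Summed levels of MHC class II genes, B cell markers and erythroid and platelet markers were higher in every KO library than in every WT library. Those of myeloid and T cell markers overlapped. MHC class II genes, which B cells and myeloid cells express, rose for 5 of 10 members (median 1.26). Their summed level was 322, 471 and 394 CPM in KO and 159, 156 and 149 CPM in WT. Cd74, the invariant chain, was at 39.0, 207 and 84.3 CPM in KO and 15.04, 30.4 and 31.7 CPM in WT (2.10 ± 0.56). KO replicate 2 was highest, and with that library alone the median of the 10 genes was 2.03, against 0.01 over all genes. Of 12 tested myeloid markers edgeR called none (4 at an unadjusted p under 0.05, 2 by DESeq2, 0 by voom; median 1.65), with summed levels of 380.04, 649.8 and 499.9 CPM in KO and 444, 409 and 405 CPM in WT. Lyz2, lysozyme of myeloid cells, was at 1.54, 62.0 and 9.18 CPM in KO and 0.759, 2.70 and 2.48 CPM in WT, and the receptor gene Csf1r at 0, 9.80 and 1.59 CPM in KO and 0.268, 1.47 and 0.301 CPM in WT. Among 10 B cell markers Cd79b rose (1.73 ± 0.26), and Pax5 stayed at or below 0.0569 CPM in all 6 libraries. The sum was 976, 809 and 1414 CPM in KO and 726, 760.4 and 696 CPM in WT, mostly from Ighm. The median of the 10 was 0.69, with 3 at an unadjusted p under 0.05 in edgeR, 2 called by DESeq2 and 1 by voom. Among 11 T cell markers Cd3g rose (0.995 ± 0.27), and Cd4 and Cd8a were at or below 0.0446 CPM. The sums were 895, 1069.9 and 1132 CPM in KO and 775, 1148 and 1222 CPM in WT. The median of the 11 was 0.73, with 6 at an unadjusted p under 0.05 in edgeR, 4 called by DESeq2 and 0 by voom. All KO libraries lay above all WT libraries for 3 of the 11 and below for 0. Trac was at 9.51, 10.2 and 21.8 CPM in KO and 6.43, 8.09 and 7.64 CPM in WT. Erythroid and platelet markers had no call among 9 by edgeR, DESeq2 or voom (3 at an unadjusted p under 0.05), with sums of 12.98, 21.9 and 11.1 CPM in KO and 4.55, 7.15 and 6.21 CPM in WT. What other cells contribute to the genes above was not tested. Zfp683 lay 4.01, 4.11 and 4.06 from the WT mean on log2(CPM + 0.1) in KO replicates 1, 2 and 3. On the same scale S100a4 lay 3.19, 2.44 and 2.74, Ccr2 -1.05, -1.26 and -1.30 and Prf1 -1.39, -0.83 and -1.84 from it.

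Many stable genes changed in the same direction at the other stages. Those comparisons use other KO and WT libraries, but all 18 libraries share 1 estimate of the spread, so the calls were not made independently. Of the 78, 45 were also called in stage II (57.7% of the stable genes and 21.7% of the 207 stage II calls, which were 1.46% of tested genes, 0.466% higher and 0.996% lower). In stage IV 28 were called (35.9% of the stable genes and 38.9% of the 72 stage IV calls, which were 0.509% of tested genes, 0.24% higher and 0.268% lower). In all 3 stages 19 were called, and 24 were called in neither stage II nor stage IV. The median log2 fold change of the 47 higher genes was 1.04 in stage II, 1.90 in stage III and 0.83 in stage IV, and that of the 31 lower genes was -1.24, -1.89 and -0.81; stage III chose the genes, so its medians are a description. A call missed at another stage does not show a difference between stages. Tests of that difference itself called 7 genes between stages III and II (0.0494%), 5 with the higher KO effect in stage III (0.0353%) and 2 with the lower (0.0141%). They called 4 between stages III and IV (0.0283%), 3 higher (0.0212%) and 1 lower (0.00706%). Of these 11 genes, Entpd1, Id3, Ccr2 and Tmem176b were stable genes. Ccr2 averaged 454, 615 and 377 CPM in KO at stages II, III and IV and 946, 1414 and 344 CPM in WT, so the groups were apart at stages II and III and overlapped at stage IV.

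**Figure D5:**
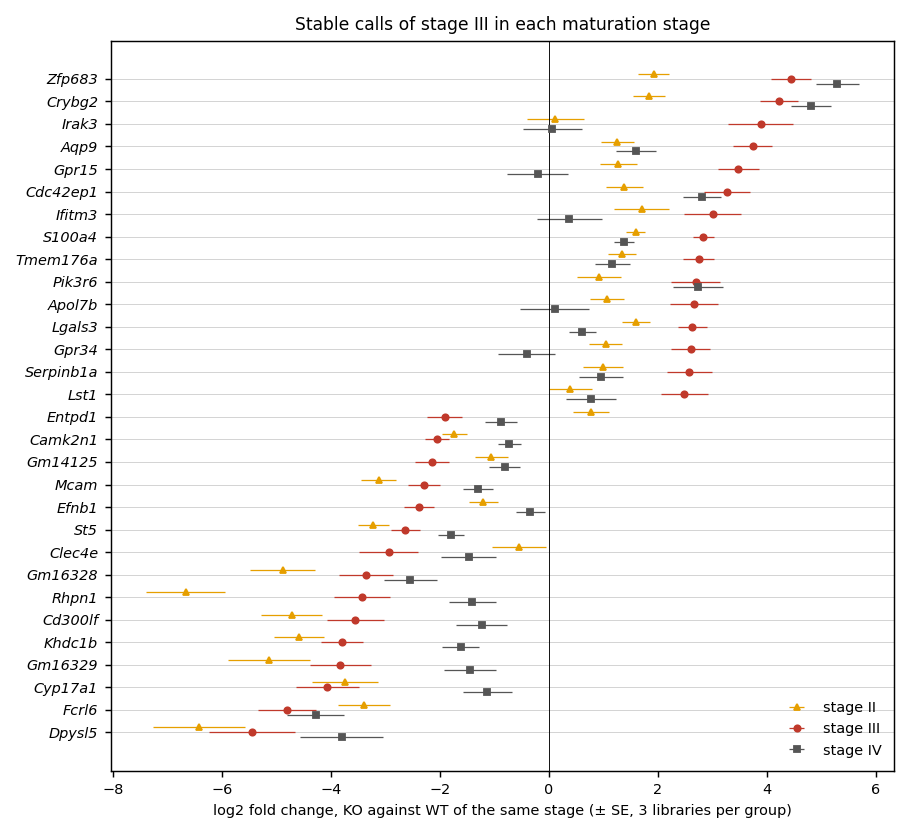
Log2 fold change, KO against WT of the same stage, for the 30 stable genes with the largest changes in stage II (triangles), stage III (circles) and stage IV (squares), with standard errors from 3 libraries per group. Most genes lie on the same side of 0 in every stage; Entpd1 is at 0.77 in stage II and -1.91 in stage III.

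Most stable changes of stage III ran against the direction of normal maturation, as did most changes of all called genes. For 60 of the 78 stable genes (76.9%) the KO change had the sign opposite to the WT difference between stage IV and stage II. It had that sign for 71.0% of the 1119 called genes and for 56.9% of all tested genes. By direction these were 40 of the 47 higher and 20 of the 31 lower genes, a larger share among the higher ones. The share over all tested genes was not taken by direction, so neither direction has its own share to be set against. Prf1 averaged 653, 1603 and 2734 CPM in WT at stages II, III and IV and 654 CPM in KO stage III. Mcam averaged 12.1, 29.6 and 76.1 CPM in WT at the same stages and 6.10 CPM in KO stage III, below every WT stage. Il7r averaged 297, 22.7 and 4.68 CPM in WT and 82.5 CPM in KO stage III. Other genes lay above every WT stage. S100a4 averaged 14.2, 8.64 and 8.44 CPM in WT and 61.8 CPM in KO stage III. Lgals3 averaged 21.4, 43.1 and 27.3 CPM in WT and 267 CPM in KO stage III.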

How the data were processed

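The study sequenced 18 libraries, 3 for each of 6 groups. STAR 2.0.4 and featureCounts 1.4.5 are named in the submitters' processing notes; build and strand setting were not given in the sources used. Every file holds a raw count, CPM and RPKM per gene (41388 genes) per the file headers. The deposited CPM and RPKM only rescale the deposited count (largest relative differences 5.05e-15 and 6.63e-14), so the count alone was analysed. Of the gene IDs, 40281 overlapped their GENCODE M21 position, so coordinates are on GRCm38, and 40254 had a symbol. PCR duplicates could not be removed without molecular identifiers.

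Counts of all 18 libraries were fitted with edgeR 4.0.16 in R 4.3.3 (filter by group, TMM scaling, quasi-likelihood test, a mean for each of 6 groups), which left 14156 genes; adjusted p-values are Benjamini-Hochberg over all genes a fit tested, from edgeR unless another tool is named, at a threshold of 0.05. The standard error is the log2 fold change over the square root of F. DESeq2 1.42.0, limma 3.58.1 voom and the other settings were alternatives, and the scripts were tested on simulated data. Fits with 1 library in an arm assume that it varies like the others. Genes were named if they were Eomes, the 15 highest or lowest stable calls, the 4 called members of a list with the smallest p (5 where no more were called), called with the stage III libraries alone, or called in a difference between stages; markers of the sort and of other cells were named regardless of result. The stage III comparison, the 33 lists of 620 genes, of which 582 genes were tested, and the naming rule were chosen with earlier results of these data known. Some named genes are not reported here.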

Additional observations from a re-analysis of the deposited data

Results flagged for a closer look

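The KO effect differed between stages in edgeR's test of the difference itself for 11 genes, all given as log2 differences of the KO effect, stage III minus the other stage. Against stage II these were Cym, a protease gene (2.97), Capn3, a calpain (2.54), Gzmm, which encodes granzyme M (2.51), Cd3d, a chain of the T cell receptor complex (2.27), Id3 (2.25), Entpd1 (-2.68) and Slc27a6, a fatty acid transporter (-2.42). For Cym the KO effect was 0.24 in stage III and -2.73 in stage II, and for Gzmm 0.69 and -1.81. The adjusted p was 0.00135 for Cym, 0.00716 for Gzmm, 0.0143 for Cd3d, 0.0225 for Capn3, 0.0358 for Id3 and Slc27a6 and 0.0376 for Entpd1. Against stage IV these were Tmem176b (1.81), Thy1, the surface antigen CD90 (1.62), Car2, a carbonic anhydrase (1.22) and Ccr2 (-1.33), with adjusted p = 0.0188, 0.0384, 0.0397 and 0.00387. Over 27 other settings the difference for Cym passed in all, that for Gzmm and Ccr2 in 25 each, and that for Thy1 and Car2 in 11 each. Groups of 3 libraries are too small for the check for single outlying samples.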

How the results depend on the processing

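The number of genes called in stage III, 1119 with the main settings, was 2316 with DESeq2, 730 with voom and quality weights, 1941 with no filter on low counts, 10 with only the stage III libraries, 162 without KO replicates 1 and 3 and 27 without WT replicates 2 and 3; single libraries left out gave 144 to 4993. With a replicate block it was 1770, with 1112 of the calls made without it among them, and for the stage III libraries alone with that block, a setting chosen after seeing the data, it was 22. Same-numbered KO and WT libraries deviated with correlations of 0.149, 0.13 and -0.046, and KO replicate 3 did not correlate best with WT replicate 3, so the numbers were not taken to pair the samples. Replicates 1 and 2 may still share something with their number, since summed immediate early genes were at 4665 to 6036 CPM in replicate 1 and 10527 to 15353 CPM in replicate 2 of all 6 groups. Called list members, 111 with the main settings, were 182 with DESeq2, 3 with only the stage III libraries, 9 with those and the block, 35 without KO replicates 1 and 3, 11 without WT replicates 2 and 3, and 35 to 267 with 1 library left out. Genes whose KO effect differed between stages III and II, 7 with the main settings, were 115 with DESeq2, 39 with voom, 290 with no filter, 21 at a mean of at least 10 CPM, 2 without KO replicates 1 and 3, 1 without WT replicates 2 and 3, and 2 to 2443 with 1 library left out. Between stages III and IV they were 4 with the main settings, 56 with DESeq2, 7 with voom, 331 with no filter, 0 without WT replicates 2 and 3, and 0 to 2440 with 1 library left out. The highest of these counts came without KO stage III replicate 2. Fits with fewer libraries or another filter also tested other numbers of genes.

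Eomes kept its direction in all settings and lost its call with voom (-0.66), with the stage III libraries alone (-0.69, and -0.69 with the block), without KO replicates 1 and 3 (-0.84) and without WT replicates 2 and 3 (-0.72); single libraries left out gave -0.73 to -0.62. The sign turned without KO replicates 1 and 3 for Actb (-0.22), Cox5a (-0.024), Atp5e (-0.075), Ndufa13 (-0.14), Psmb6 (-0.0585) and Cym (-0.23), and for Cym without KO replicate 3, where single libraries left out gave -0.086 to 0.42; the cause was not tested. Over 3688 values of 128 named genes, 2715 kept direction and call, 956 kept the direction without the call, 10 gained a call and 7 turned. RLE size factors called 1170 genes, 1116 of them among the main calls.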
